A study of Mus musculus with 2 samples.

Results

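Leukotriene and prostaglandin synthesis was examined through 10 genes taken by name from the pathway: *Pla2g4a*, *Alox5*, *Alox5ap*, *Lta4h*, *Ltc4s*, *Alox15*, *Ptgs1*, *Ptgs2*, *Ptges* and *Tbxas1*. All 10 were found among the 35522 features listed in each of both expression tables. The RNA came from neutrophils sorted out of mouse bone marrow as CD11b-positive, Ly-6G-high cells with low or no Ly-6C, and kept in medium with 10 ng/ml GM-CSF. One culture was given PBS for 3 days (labelled PBS-treated). The other was given tumor exosomes at 20 μg/ml for 3 days (labelled ELV-treated), prepared by ultracentrifugation from stem cell medium in which the mouse colon cancer line CT26 had been grown as spheres. Both cultures therefore shared the sort, the GM-CSF and the time, and differed in the exosomes. The study's methods give Balb/C mice of 5 to 8 weeks as the source of isolated immune cells. The number of animals behind each culture is not given in the sources used here. Each group holds 1 library, so no value below has a replicate, no test between the groups could be made, and a difference cannot be set against a spread between cultures.

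Eicosanoids are short-lived lipid mediators made from arachidonic acid, which phospholipases cut from membrane lipids. In the leukotriene branch, 5-lipoxygenase and its membrane partner FLAP turn arachidonic acid into leukotriene A4, which is then hydrolysed to leukotriene B4, a strong neutrophil attractant, or joined to glutathione as leukotriene C4. In the prostanoid branch, a cyclooxygenase makes prostaglandin H2, and terminal enzymes convert it to prostaglandin E2, thromboxane and other products. Neutrophils are known as producers of leukotriene B4, while eosinophils and mast cells are known for leukotriene C4 and platelets for thromboxane.

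Levels are RPKM, that is, reads scaled to exon length and to the mapped reads of the library, so that genes of unequal length can be compared within a library. The depths, estimated from the smallest values, were about 66000000 and 79100000 mapped reads for PBS-treated and ELV-treated neutrophils, and the 95% intervals given below cover the counting error of estimated reads and nothing else. A gene was kept for ratios at 0.25 RPKM or more in both libraries, and was called higher or lower in ELV-treated neutrophils at a ratio of at least 2 or at most 0.5. Markers of the labelled cell were abundant: *S100a9*, a calcium-binding protein of neutrophils, stood at 43059 RPKM in PBS-treated and 13834 in ELV-treated neutrophils. Of 14 neutrophil markers, 10 were at least 2-fold lower in ELV-treated neutrophils, against 5.62% of all genes kept. The summed level of the 14 was 84910 RPKM in PBS-treated and 30870 RPKM in ELV-treated neutrophils.

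Of the 10 genes, 8 were kept. Under the deposited scaling, 6 of the 8 genes that passed the filter had lower and 2 had higher levels in exosome-treated neutrophils, and the prostaglandin E synthase gene *Ptges* alone passed the 2-fold limit. The share lower by some amount was 75%, whereas 26.8% of the 9698 genes kept in all were lower. *Ptges* had a ratio of 2.45, and 31.5% of all genes kept were called higher. None of the 8 was called lower (0 genes), and 5.62% of all genes kept were. The median log2 ratio of the 8 genes was -0.59, against 0.53 for all genes kept, and single values ran from -0.95 to 1.29. The counting interval lay wholly below 0 for the 6 lower genes and wholly above 0 for the 2 higher genes. Because the list was chosen with earlier results of these data known, these counts describe the list and carry no test. Since the RNA came from whole cultures, fewer cells of a type and less RNA per cell cannot be told apart.

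**Figure D1:**
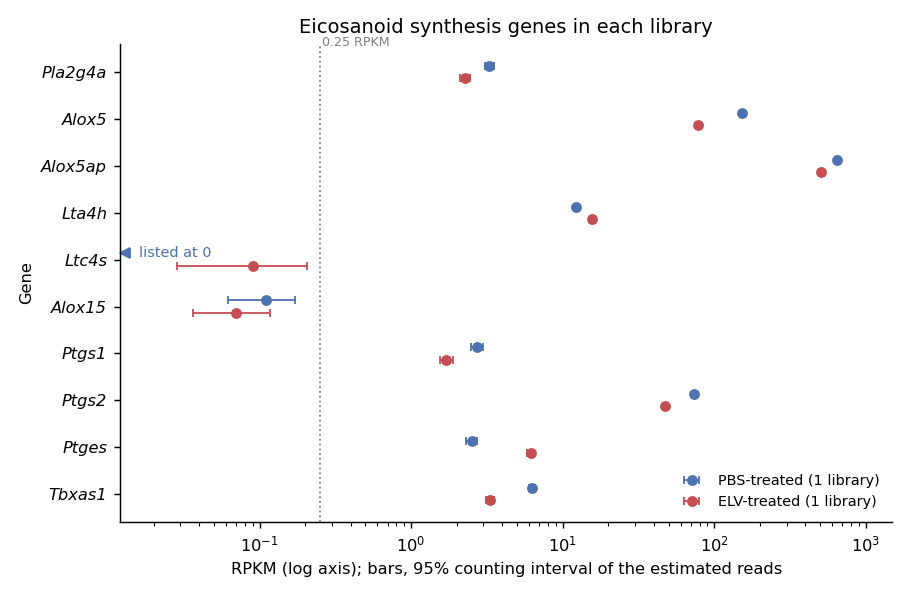
RPKM of the 10 eicosanoid synthesis genes (log axis) in the PBS-treated library (blue) and the ELV-treated library (red), with 95% counting intervals; the dotted line marks 0.25 RPKM and the arrow a value listed at 0. *Alox5ap* and *Alox5* were the highest genes in both libraries, *Ltc4s* and *Alox15* lay below 0.25 RPKM in both, and the red point lies to the right of the blue one for *Lta4h*, *Ptges* and *Ltc4s*.

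The supply of arachidonic acid was looked at first. *Pla2g4a* (chromosome 1, 149829618 to 149961290, minus strand, GRCm38) encodes cytosolic phospholipase A2, which releases arachidonic acid from membranes when calcium rises. It had 3.29 RPKM in PBS-treated and 2.27 RPKM in ELV-treated neutrophils, a log2 ratio of -0.54 (95% counting interval -0.69 to -0.38). The RNA of this releasing enzyme was thus low in both libraries and lower by a factor of 1.45 with exosomes. Among the 2950 genes kept with a mean of 1 to 5 RPKM, where the median log2 ratio was 1.0, 9.15% had a lower ratio than *Pla2g4a*.

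The 5-lipoxygenase pair had the highest levels of the 10 genes. *Alox5ap* (chromosome 5, 149265004 to 149288153, plus strand), which encodes FLAP, the membrane protein that presents arachidonic acid to 5-lipoxygenase, had 649 RPKM in PBS-treated and 504 RPKM in ELV-treated neutrophils. It ranked as gene 47 and gene 61 by level in these libraries, and held 72% and 76.4% of the summed RPKM of the 10 genes. Its log2 ratio was -0.36 (interval -0.38 to -0.35). *Alox5* (chromosome 6, 116410071 to 116461178, minus strand), which encodes 5-lipoxygenase itself, had 152 RPKM in PBS-treated and 78.6 RPKM in ELV-treated neutrophils. This was the lowest ratio of the 8 genes, 0.519 (log2 ratio -0.95, interval -0.97 to -0.92), just short of the limit of 0.5. The enzyme was therefore lower by more than its partner. The quotient of *Alox5* to *Alox5ap*, which no scaling between the libraries can alter, was 0.234 in PBS-treated and 0.156 in ELV-treated neutrophils, a change by a factor of 0.668 (interval 0.654 to 0.682). Within the band of 1099 genes at 50 RPKM or more, whose median log2 ratio was 0.04, 12.1% had a lower ratio than *Alox5* and 30.3% a lower one than *Alox5ap*.

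The next step divides leukotriene A4 between its products. *Lta4h* (chromosome 10, 93453396 to 93484896, plus strand) encodes the hydrolase that makes leukotriene B4. It had 12.27 RPKM in PBS-treated and 15.65 RPKM in ELV-treated neutrophils, a log2 ratio of 0.35 (interval 0.28 to 0.42). This value lay close to the median of 0.31 for the 2989 genes kept with a mean of 10 to 50 RPKM. Relative to *Alox5*, the hydrolase gained: the quotient of *Alox5* to *Lta4h* was 12.4 in PBS-treated and 5.02 in ELV-treated neutrophils, a pair set side by side after the values were seen. *Ltc4s* (chromosome 11, 50236461 to 50238532, minus strand), which encodes the synthase that joins leukotriene A4 to glutathione, was listed at 0 in PBS-treated and at 0.09 RPKM in ELV-treated neutrophils. The latter stands for about 5 reads. In PBS-treated neutrophils 3 reads would amount to 0.064 RPKM, so no fold is given and a difference was not detectable at this depth. In ELV-treated neutrophils the hydrolase RNA exceeded the synthase RNA by a quotient of 174, which rests on those 5 reads and was 46.8 with a pseudocount of 0.25 RPKM and 15.3 with 1 RPKM.

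*Alox15* (chromosome 11, 70344147 to 70390538, minus strand) encodes the second lipoxygenase, known in mouse eosinophils and peritoneal macrophages for placing oxygen at other carbons of arachidonic acid. It lay below the limit for ratios in both libraries, with 0.11 RPKM in PBS-treated and 0.07 RPKM in ELV-treated neutrophils, or about 17 and 13 reads. The interval of its log2 ratio, -1.81 to 0.48, includes 0, so no difference was detectable at this depth. Of 8 eosinophil markers, 7 were lower in ELV-treated neutrophils and none was at 0, but 5 of the 8 lay below the filter. Of all genes kept, 26.8% were lower by some amount. The summed level of the 8 markers was 17.41 RPKM in PBS-treated and 6.13 RPKM in ELV-treated neutrophils. *Prg2*, a granule protein with the highest mean, was at 5.32 and 2.93 RPKM. *Ear2*, a ribonuclease of eosinophils, was the marker called lower under the deposited scaling, with 6.41 and 0.44 RPKM. Under median centring all 3 markers kept were called lower, against 13.2% of all genes kept. Mast cell and basophil markers summed to 2.3 RPKM in PBS-treated and 2.4 RPKM in ELV-treated neutrophils. Among them *Mcpt8*, a basophil protease, had the highest level, 1.01 and 0.86 RPKM, and the mast cell proteases *Tpsab1* and *Cma1* were listed at 0 in both libraries. The part of these cells in the values of *Ltc4s* and *Alox15* was not tested.

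In the prostanoid branch both cyclooxygenases were lower together. *Ptgs2* (chromosome 1, 150100031 to 150108234, plus strand) encodes the cyclooxygenase that is induced in inflammation. It had 73.7 RPKM in PBS-treated and 47.5 RPKM in ELV-treated neutrophils, a log2 ratio of -0.64 (interval -0.66 to -0.61). *Ptgs1* (chromosome 2, 36216742 to 36258593, plus strand) encodes the cyclooxygenase that most tissues carry at rest. It had 2.73 RPKM in PBS-treated and 1.71 RPKM in ELV-treated neutrophils, a log2 ratio of -0.67 (interval -0.87 to -0.48). The inducible form thus made up nearly all cyclooxygenase RNA in both libraries. The quotient of *Ptgs2* to *Ptgs1* was 27.0 in PBS-treated and 27.8 in ELV-treated neutrophils, a change by a factor of 1.03 whose interval, 0.897 to 1.18, includes 1. Among genes of like level, 19.9% had a lower ratio than *Ptgs2* and 7.46% a lower one than *Ptgs1*.

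*Ptges* departed from the cyclooxygenases that feed it. It lies on the minus strand of chromosome 2 (30889471 to 30931020) and encodes microsomal prostaglandin E synthase, which makes prostaglandin E2 and is often induced together with *Ptgs2*. It had 2.51 RPKM in PBS-treated and 6.14 RPKM in ELV-treated neutrophils, a log2 ratio of 1.29 (interval 1.16 to 1.43). The gene thereby moved from the lowest of the 8 kept genes to the fifth of them. The quotient of *Ptgs2* to *Ptges*, computed after the values were seen, was 29.4 in PBS-treated and 7.73 in ELV-treated neutrophils, lower by a factor of 3.8. Among genes of like level the increase was not unusual, since 61.1% of them had a lower ratio and their median was 0.29 below it. Macrophages can express *Ptges* too, and of 14 macrophage and monocyte markers, 13 were higher in ELV-treated neutrophils and 6 of the 9 kept were at least 2-fold higher. Their summed level was 452.2 RPKM in PBS-treated and 857.5 RPKM in ELV-treated neutrophils, and none was at 0. Of all genes kept, 31.5% were called higher and 26.8% were lower by some amount, and under median centring 4 of the 9 markers were called higher. *Lyz1*, a lysozyme with the highest mean of the list, had 74.64 and 189 RPKM. *Ly6c2*, which encodes the Ly-6C that the sort selected against, was the marker called lower, with 184 and 37.12 RPKM. The part of such cells in the value of *Ptges* was not tested.

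*Tbxas1* (chromosome 6, 38864159 to 39084590, plus strand) encodes thromboxane synthase, which draws on the same prostaglandin H2. It had 6.25 RPKM in PBS-treated and 3.31 RPKM in ELV-treated neutrophils, a ratio of 0.53 (log2 ratio -0.92, interval -1.02 to -0.81). This was the second lowest ratio of the 8 genes, and only 5.25% of the genes of like level had a lower one. The 2 terminal enzymes therefore stood on opposite sides of a ratio of 1. Platelet and megakaryocyte markers, the cells best known for thromboxane, summed to 41.04 RPKM in PBS-treated and 36.44 RPKM in ELV-treated neutrophils. Of the 8 markers 6 were lower with exosomes, 1 of them at least 2-fold, and none was at 0. Of all genes kept, 26.8% were lower by some amount and 5.62% at least 2-fold. Under median centring 5 of the 8 markers were called lower, against 13.2% of all genes kept. The highest marker was *Pf4*, a platelet chemokine, with 19.1 and 23.32 RPKM. Their part in the values of *Ptgs1* and *Tbxas1* was not tested.

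In order of level, *Alox5ap*, *Alox5*, *Ptgs2* and *Lta4h* took the first 4 places in both libraries. In PBS-treated neutrophils *Tbxas1*, *Pla2g4a*, *Ptgs1* and *Ptges* followed, and the counting intervals of *Ptgs1* (2.5 to 2.97 RPKM) and *Ptges* (2.31 to 2.72 RPKM) overlapped. In ELV-treated neutrophils the order after *Lta4h* was *Ptges*, *Tbxas1*, *Pla2g4a* and *Ptgs1*. The last places were held by *Ltc4s* and *Alox15*, whose intervals overlapped in the ELV-treated library.

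**Figure D2:**
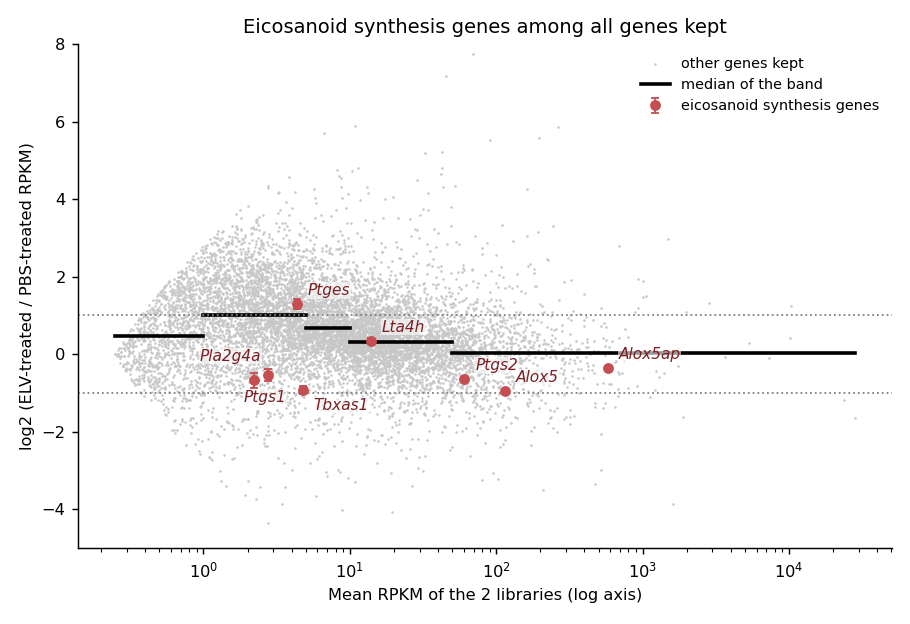
Log2 ratio of ELV-treated to PBS-treated RPKM against the mean RPKM of both libraries (log axis) for the 9698 genes kept (grey), with the 8 eicosanoid synthesis genes in red and their 95% counting intervals; black bars are medians of 5 bands of level and dotted lines the 2-fold limits. *Pla2g4a*, *Ptgs1*, *Tbxas1*, *Ptgs2*, *Alox5* and *Alox5ap* lie below the bar of their band, whereas *Ptges* lies 0.29 and *Lta4h* 0.04 above it.

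The scaling of the libraries decided which genes passed the 2-fold limit. The deposited values were not centred on each other, and the median of all genes kept was shifted by 0.53 on the log2 scale. With this median subtracted, *Ptges* had a log2 ratio of 0.76 and was no longer called, and 5 of the 8 genes were called lower: *Alox5* (-1.47), *Tbxas1* (-1.44), *Ptgs1* (-1.2), *Ptgs2* (-1.16) and *Pla2g4a* (-1.06). Under this setting 16.8% of all genes kept were called higher and 13.2% lower. Subtraction of a trimmed mean of log ratios called the same 5 genes lower and none higher (0 genes), against 16.5% of all genes kept called higher and 13.6% called lower. The sign of *Lta4h* turned under both settings, to -0.18 and -0.19. The 6 lower genes and *Ptges* kept their sign under both.

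**Figure D3:**
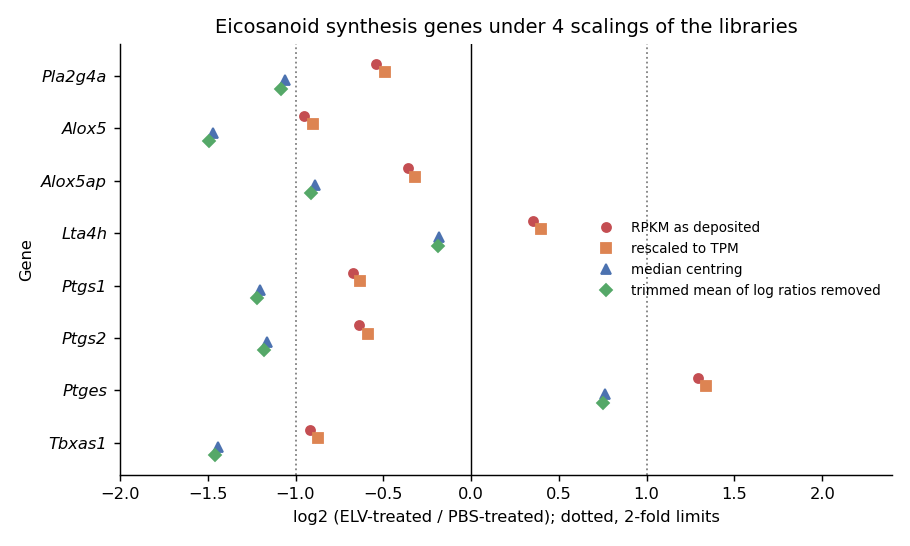
Log2 ratio of ELV-treated to PBS-treated neutrophils for the 8 genes kept, under the deposited RPKM (red circles), rescaling to TPM (orange squares), median centring (blue triangles) and subtraction of the trimmed mean (green diamonds); dotted lines are 2-fold limits. Both centred settings move every gene left by just over 0.5, which takes 5 genes past the lower limit, *Ptges* inside the upper one and *Lta4h* across 0.

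*Pla2g4a* and *Ptgs2* lie next to each other on chromosome 1, on opposite strands and facing away from each other, with 138740 bases and no protein-coding gene (0 in the RefSeq annotation) between them. Their log2 ratios of -0.54 and -0.64 had overlapping intervals, although the level of *Ptgs2* was far higher in both libraries. The noncoding transcript that starts beside *Ptgs2*, Ptgs2os (listed under its older symbol), and the pseudogene Gm19136 between them were listed at 0 in both libraries.

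The rest of the pathway was followed through 99 genes in 9 lists by role. Of these, 50 were kept, 14 (28%) were called higher and 5 (10%) lower, against 31.5% and 5.62% of all genes kept. With the median subtracted, 6 were called higher and 12 lower.

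**Figure D4:**
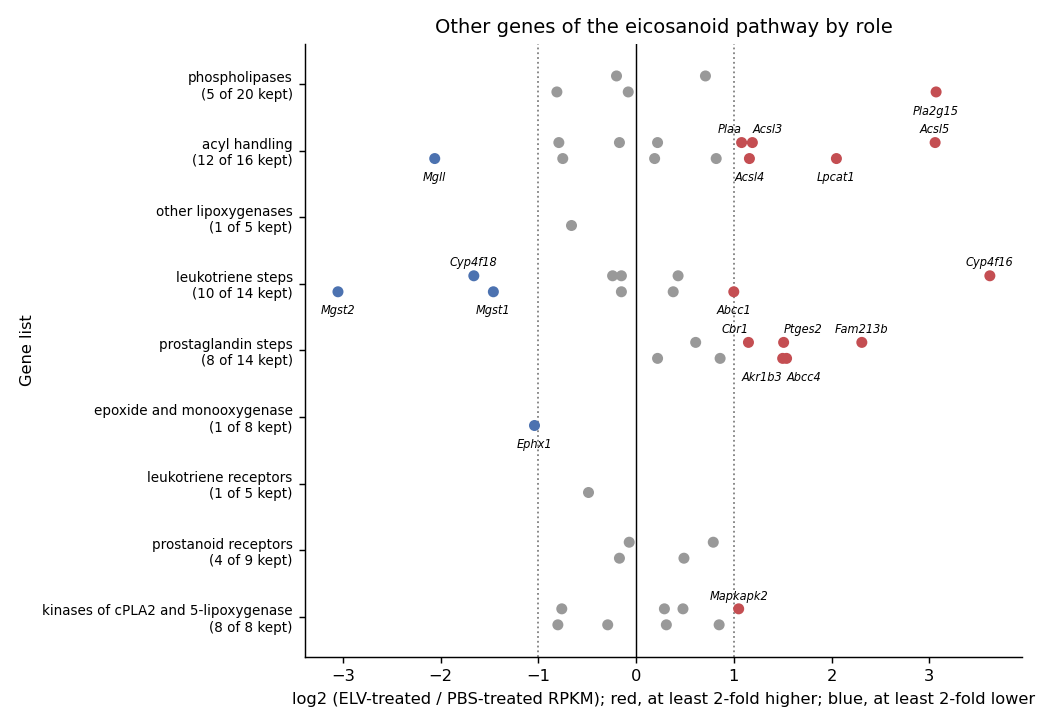
Log2 ratio of ELV-treated to PBS-treated RPKM for the 50 other pathway genes kept, in 9 lists by role, with dotted lines at the 2-fold limits; genes called higher are red, genes called lower blue, and both are named. Of the prostaglandin steps 5 of 8 kept genes were called higher and none lower. The leukotriene steps hold 2 genes called higher and 3 called lower among 10 kept. Of all genes kept, 31.5% were called higher and 5.62% lower. Under median centring the counts were 2 and 0 for the prostaglandin steps and 1 and 3 for the leukotriene steps. The shares of all genes kept were then 16.8% and 13.2%.

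Among 20 other phospholipase A2 genes, 5 were kept, 1 was called higher and 0 lower, against 31.5% and 5.62% of all genes kept. The called gene was *Pla2g15*, a lysosomal phospholipase, with 0.98 RPKM in PBS-treated and 8.22 RPKM in ELV-treated neutrophils (ratio 8.39). Under median centring 1 of the 5 was called higher and 1 lower, against 16.8% and 13.2% of all genes kept. The lower one was *Pla2g5* (log2 ratio -1.34). Its deposited levels, 15.18 and 8.66 RPKM, were above those of *Pla2g4a* in both libraries. The most abundant was *Pla2g7*, which encodes the hydrolase of platelet-activating factor and does not serve arachidonic acid release, with 426.86 and 699.51 RPKM. Of the 20 genes, 7 were listed at 0 in both libraries. Of 16 genes that activate arachidonic acid, place it in lipids or act beside these steps, 12 were kept, 5 were called higher and 1 lower. Of all genes kept, 31.5% were called higher and 5.62% lower. Under median centring 2 of the 12 were called higher and 3 lower. *Acsl5*, an acyl-CoA synthetase, had 15.27 RPKM in PBS-treated and 127 RPKM in ELV-treated neutrophils (ratio 8.33). *Lpcat1*, a lysophospholipid acyltransferase, had a ratio of 4.14, and the synthetases *Acsl3* and *Acsl4* had ratios of 2.28 and 2.23. *Plaa*, a ubiquitin-binding protein once named for activating phospholipase A2, had a ratio of 2.11. *Mgll*, which encodes monoacylglycerol lipase, another source of arachidonic acid, was the gene called lower under the deposited scaling, with 10.62 and 2.54 RPKM (ratio 0.239). The most abundant was *Lpcat2*, with 107 RPKM in PBS-treated and 188 RPKM in ELV-treated neutrophils.

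Of 14 genes for later leukotriene steps, 10 were kept, 2 were called higher and 3 lower. *Cyp4f18*, the cytochrome P450 with which mouse neutrophils oxidise leukotriene B4, had 439 RPKM in PBS-treated and 139 RPKM in ELV-treated neutrophils (ratio 0.317). *Mgst2*, which can make leukotriene C4 in cells without *Ltc4s*, had 12.22 and 1.48 RPKM (ratio 0.121), and its relative *Mgst1* had 260 and 94.6 RPKM (ratio 0.363). The RNAs of *Ltc4s* and *Mgst2* were therefore both at or below 1.48 RPKM in ELV-treated neutrophils. *Cyp4f16*, of the same P450 family, had 0.25 RPKM in PBS-treated neutrophils, at the limit of the filter, and 3.08 RPKM in ELV-treated neutrophils. *Abcc1*, an exporter of leukotriene C4, had 20.23 and 40.49 RPKM, a ratio of 2.0 at the limit itself. By mean level the most abundant gene of this list was *Cotl1*, inside the 2-fold limit (ratio 0.849). It had 374 RPKM in PBS-treated and 317 RPKM in ELV-treated neutrophils. Among the 5 other lipoxygenases *Alox12*, the platelet enzyme, was the one kept, with 0.43 RPKM in PBS-treated and 0.27 RPKM in ELV-treated neutrophils, and 3 of the 5 were listed at 0 in both libraries.

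Of 14 genes for other prostaglandin steps, 8 were kept, 5 were called higher and 0 lower, with a median log2 ratio of 1.32. Under median centring 2 of the 5, *Fam213b* (1.79) and *Abcc4* (1.02), were still called, and the median was 0.8. *Ptges2*, a second membrane-bound prostaglandin E synthase, had 5.68 RPKM in PBS-treated and 16.16 RPKM in ELV-treated neutrophils (ratio 2.85). *Ptges3*, the cytosolic form and also a co-chaperone, was the most abundant, with 42.3 and 64.47 RPKM, inside the 2-fold limit. All 3 genes named as prostaglandin E synthases were thus higher in ELV-treated neutrophils, 2 of them at least 2-fold under the deposited scaling, but neither of these was called under median centring. The aldo-keto reductase *Akr1b3*, the carbonyl reductase *Cbr1* and *Fam213b* (listed as 2810405K02Rik), which can act on prostaglandins, had ratios of 2.83, 2.22 and 4.97. Levels were low for *Cbr1* (0.5 RPKM in PBS-treated and 1.11 in ELV-treated neutrophils) and *Fam213b* (0.37 and 1.84 RPKM). Neither passed a filter of 1 RPKM in both libraries. *Abcc4*, an exporter of prostaglandin E2, had a ratio of 2.92.

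Of the receptor genes kept, none passed the 2-fold limit (0 genes). Of 5 leukotriene receptor genes, *Ltb4r1*, which encodes the main receptor of leukotriene B4, was the one kept, with 16.6 RPKM in PBS-treated and 11.84 RPKM in ELV-treated neutrophils, and it was called lower under median centring (log2 ratio -1.01). Of 9 prostanoid receptor genes 4 were kept, and 0 were called in either direction. The most abundant, *Ptger1*, had 30.45 and 29.04 RPKM. Of 8 genes for kinases that act on cytosolic phospholipase A2 or 5-lipoxygenase, all were kept. *Mapkapk2*, which phosphorylates 5-lipoxygenase, was the most abundant and was called higher, with 133 RPKM in PBS-treated and 277 RPKM in ELV-treated neutrophils (ratio 2.08). It was the 1 kinase gene called, whereas 31.5% of all genes kept were called higher. Under median centring its log2 ratio was 0.53, and 0 of the 8 kinase genes were called higher and 2 lower. Of 8 genes that act on epoxides or are P450s outside the leukotriene steps, *Ephx1*, a microsomal epoxide hydrolase, was the one kept, with 2.63 and 1.28 RPKM (ratio 0.487, called lower). Its log2 ratio of -1.04 was just past the limit, and 5.62% of all genes kept were called lower. Rescaling to TPM took it inside the limit, whereas under median centring it was -1.57 and still called.

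Markers of other cells were looked at in both libraries as well. Of 9 lymphocyte markers 4 were kept and 0 called, and of 8 dendritic cell markers 3 were kept and 2 called lower. Of 5 erythroid markers 0 were kept, and of 7 epithelial and CT26-type markers 1 was kept and 0 called. Of all genes kept, 31.5% were called higher and 5.62% lower. Under median centring 4 lymphocyte and 2 dendritic cell markers were called lower, against 13.2% of all genes kept. Lymphocyte markers summed to 106 and 64.89 RPKM, led by the B cell gene *Cd79a* with 38.25 and 24.44 RPKM, and dendritic cell markers to 13.79 and 6.83 RPKM, led by *Itgax* with 8.98 and 4.19 RPKM. Erythroid markers summed to 1.57 and 0.145 RPKM, with *Hba-a1*, a globin gene, at 1.19 and 0.02 RPKM and *Klf1* at 0 in PBS-treated neutrophils. Epithelial and CT26-type markers summed to 1.2 and 1.055 RPKM, led by *Prom1* at 0.57 and 0.82 RPKM. *Krt8* was at 0 in both libraries and *Krt19* in PBS-treated neutrophils. The part of any of these cells in the values of the 10 genes was not tested. Exons of *Alox5ap*, *Ltc4s*, *Ptgs1* and *Tbxas1* overlap an annotated transcript of the opposite strand in GENCODE M21, to an extent that was not measured. Whether strand was used in counting, and whether the authors' annotation held these partners, is not given in the sources used here. Reads from the shared stretches of these 4 genes and their partners therefore cannot be told apart.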

How the data were processed

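RNA of PBS-treated and ELV-treated neutrophils (1 library each) was made into TruSeq mRNA libraries and sequenced. The deposited values are RPKM per feature, computed by the authors with CLC Genomics Workbench from quality-trimmed reads. The processing notes name the build mm10. Annotation, strand, multi-mapping reads and scaling between libraries are not given in the sources used here. Deposited RPKM above 0.01 are rounded to 0.01. Commas grouping the digits of 44 large values were removed, and 25 features bear a number in place of a name.

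Ratios were taken without a pseudocount for genes at 0.25 RPKM or more in both libraries, and genes were called at 2-fold. RPKM are not counts, so no count model was fitted and no p-value is given. Depth was estimated as the commonest value of 1 read divided by RPKM and length among values under 0.01 (224 of 918 values within 1% of each other in PBS-treated, 270 of 1064 in ELV-treated neutrophils), with the longest GENCODE M21 transcript as length. These lengths need not be those of the authors. Reads estimated in this way gave exact 95% intervals (Clopper-Pearson for ratios, Poisson for levels, conditional for quotients), which cover counting error only. Bands of level used the arithmetic mean RPKM. Coordinates are from RefSeq on GRCm38.p6, the assembly of mm10. The call and interval steps were tested on simulated data. Python 3.11.15 with pandas 2.3.3, numpy 2.4.6 and scipy 1.17.1 was used.

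The genes, the 9 pathway lists, the 9 marker lists and the settings were chosen with earlier results of these data known. All 10 genes were named, with the called genes and the most abundant gene of each pathway list, and the most abundant marker and markers at 0 of each marker list, except 1 marker that is not reported here. Other settings were median centring, a trimmed mean of log ratios (30% of ratios and 5% of means left out at each end), TPM, 1 RPKM in both libraries, pseudocounts of 0.25 (without filter) and 1, and fold limits of 4 and 1.5. A median without *Ptges*, the quotients of *Ptgs2* to *Ptges* and of *Alox5* to *Lta4h*, their settings and *Ear2* among the named markers were added after seeing the data. So was *Pla2g5* among the named pathway genes.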

Additional observations from a re-analysis of the deposited data

How the results depend on the processing

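Centring changed the calls. Median centring gave 0 genes called higher and 5 lower among the 8, a median log2 ratio of -1.11, and 6 higher and 12 lower among the other pathway genes, and the trimmed mean gave 0, 5, -1.13, 6 and 12 in the same order, against 1, 0, -0.59, 14 and 5 as deposited. The median was -0.43 both without a filter (pseudocount 0.25, all 10 genes) and with a pseudocount of 1, and -0.64 without *Ptges* (added after seeing the data). Of the other pathway genes 9 were called higher at 1 RPKM in both libraries. A fold limit of 4 left 0 of the 8 genes higher and 0 lower, and 5 higher and 2 lower among the other pathway genes. A limit of 1.5 called 1 of the 8 genes higher and 4 lower, and 20 other pathway genes higher and 11 lower. The shares of all genes kept at limits of 4 and 1.5 were not computed, so these counts cannot be set against them. With a pseudocount of 1 the change of the *Ptgs2* to *Ptgs1* quotient was 0.893, and the *Lta4h* to *Ltc4s* quotient in ELV-treated neutrophils was 46.8 with a pseudocount of 0.25 and 15.3 with 1. Of 48 recomputed ratios of single genes, 26 moved by less than the counting error and 22 by more. None turned the sign of *Ptges*, the called gene. The 26 include the ratios at 1 RPKM in both libraries, which could not move because all 8 genes passed that filter. The 22 include every ratio under both centred settings, each of which subtracts 1 constant from all genes. The tally is therefore no measure of how stable the ratios were. With 1 library per group no replicate could be left out, and variation between cultures was not measured. Depth limited *Ltc4s* and *Alox15*.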

Other observations

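A pair of genes outside the naming rule, chosen after their values were seen, stood below the filter in PBS-treated neutrophils alone. *Hpgds*, which encodes the prostaglandin D synthase of blood cells, had 0.23 RPKM in PBS-treated and 2.25 RPKM in ELV-treated neutrophils. *Mgst3*, a relative of *Mgst2*, had 0.12 and 1.29 RPKM. Neither enters the counts above, and neither value has a replicate.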
